A study of Mus musculus with 12 samples.

Results

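Cells labelled preadipocyte were compared with each of the other populations sorted by flow cytometry from the same dissected tissue, to find the genes that set them apart from all of them. The tissue was aorta with its perivascular fat from CD-1 mouse pups 3 days old, males and females mixed, and the labels name no genetic change and no treatment in any group. The populations are called preadipocyte, progenitor, intermediate (labelled Intermediate Cells) and smooth muscle, with 3 libraries each, so the 3 preadipocyte libraries stood against 9 others of 12 in all. Poly(A) RNA was amplified by SMART-Seq v4 before sequencing. The gates are not in the labels, so levels of surface markers may have been fixed by the sort. Nor do the labels say that the replicates of a group are separate litters or sorts. The p-values therefore measure the spread among these libraries alone, and that spread may be technical. In bulk libraries such as these, fewer cells of a type and less RNA per cell cannot be told apart.

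Preadipocytes are cells committed to the fat lineage. They mature by switching on the nuclear receptor PPARγ and its partner C/EBPα, which drive genes for taking up fatty acids, storing them as triglyceride in a coated droplet and releasing them again. The fat around the rodent thoracic aorta is of the brown type, whose mitochondria burn fatty acids and release heat through the uncoupling protein UCP1. The progenitors and mural cells of the vessel wall make the collagens and elastic fibres that surround the maturing fat cells.

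Preadipocyte libraries held 15148249 to 15739798 counts, within the range of 11701825 to 17123109 over all libraries. Transcripts of the mitochondrial genome took 3.43%, 2.56% and 3.41% of counts in preadipocyte replicates 1, 2 and 3 and 0.636% to 1.38% in the others. Haemoglobin genes took 0.114%, 0.129% and 1.84% in these libraries, in the same order, and at most 0.0253% elsewhere, so replicate 3 stood apart from its group. Across genes, levels on the log2 scale of CPM, counts scaled to a common library total, in preadipocyte libraries correlated at 0.892 to 0.922 with progenitor, 0.868 to 0.904 with intermediate and 0.846 to 0.876 with smooth muscle libraries, and 0.963 to 0.983 with each other. These are correlations over genes, which are not independent replicates. Of the 10 genes listed as preadipocyte and adipocyte markers, 9 were higher in preadipocyte libraries than in every other population, as were 16% of all genes tested. A longer list of committed preadipocyte markers had 1 of 21 high and 7 low, against 16% and 13.7% of all genes. The exception among the 10 was Dlk1, which encodes the preadipocyte factor PREF1 and stood at 707, 505 and 403 CPM in preadipocyte replicates 1, 2 and 3, 2212, 2156 and 2449 CPM in progenitor, 634, 552 and 635 in intermediate and 87.4, 96 and 138 in smooth muscle replicates. Its preadipocyte libraries lay below every progenitor library, with replicate 1 above and replicates 2 and 3 below the 3 intermediate libraries.

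A gene was counted as set apart when it differed in the same direction from progenitor, from intermediate and from smooth muscle libraries, each at an adjusted p under 0.05 by edgeR's quasi-likelihood test, and when the 3 preadipocyte libraries lay all above or all below the other 9. The largest of the 3 adjusted p is given for it. Where the text says that such a gene's preadipocyte libraries did not overlap the others, this restates the rule and is no further result. Of 21285 genes tested, 3409 (16%) were set apart high and 2918 (13.7%) were set apart low. The counts given below for gene lists are to be read beside these shares. Against the mean of the other 3 populations, weighted equally, 5777 genes (27.1%) were higher and 7131 (33.5%) were lower, with a median log2 difference of -0.26 over all genes. Scaling by library size alone, which uses no composition factor, moved that median to -0.01 and gave 4369 genes set apart high and 2206 low, a high share of 66.4% of calls in place of 53.9%. In the pairwise comparisons, 25.1% of genes were higher and 25.9% lower than in progenitor, 26% higher and 31.1% lower than in intermediate, and 25.9% higher and 40.7% lower than in smooth muscle libraries. These comparisons share the preadipocyte libraries and are not independent of each other.

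The distance of a set-apart gene from its nearest other population, called its gap here, was often small. Its median was 2.09-fold for the high genes and 2.25-fold for the low genes. At least a 4-fold gap was found for 370 high and 474 low genes, and at least a 16-fold gap for 42 high and 7 low genes. For 2362 of the 3409 high genes (69.3%) the nearest population was progenitor, for 717 (21%) smooth muscle and for 330 (9.68%) intermediate. Low genes were nearest to smooth muscle in 1375 of 2918 cases (47.1%), to progenitor in 1043 (35.7%) and to intermediate in 500 (17.1%).

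**Figure D1:**
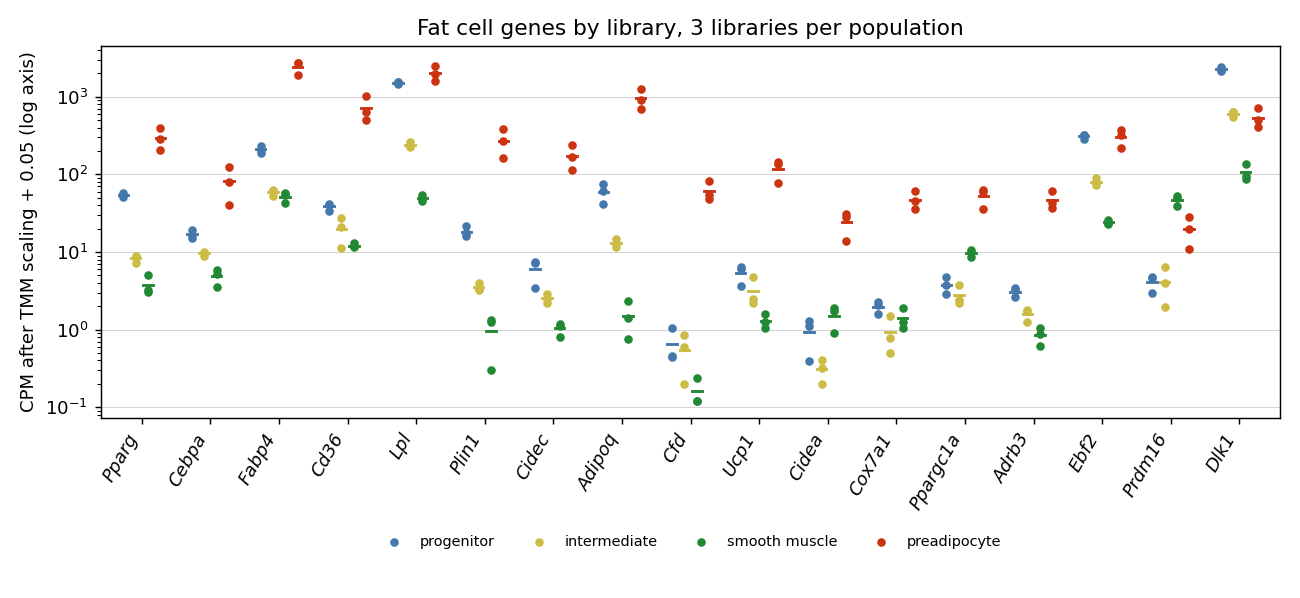
Levels of 17 fat cell genes in each library, as CPM after TMM scaling plus 0.05 on a log axis; points are libraries, short bars the mean of 3 and colours the population. Preadipocyte libraries lie above the other 9 for the genes from Pparg to Adrb3, while Ebf2 and Dlk1 reach as high or higher in progenitor and Prdm16 is highest in smooth muscle libraries.

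The 20 high genes with the widest gaps fell into 2 groups by their replicates. In 15 of them preadipocyte replicate 3 was over 4 times the higher of the other 2 replicates, and these are genes of red blood cells and their precursors, among them Car1, Cldn13, Slc4a1, Car2, Klf1, Rhag, Ctse, Hemgn, Alas2, Hbb-bs, Hbb-bt, Hba-a1, Ermap and Rhd. Slc4a1, which encodes the anion exchanger of the red cell membrane, stood at 17.3, 22.1 and 698 CPM in preadipocyte replicates 1, 2 and 3, 0.155, 0.0684 and 0.603 CPM in progenitor, 0.356, 0.752 and 1.09 in intermediate and 1.86, 1.02 and 0.424 in smooth muscle replicates. All 3 preadipocyte libraries lay above the other 9, but replicates 1 and 2 were far below replicate 3. Its log2 difference from the mean of the others was 8.63 ± 0.87 (SE, adjusted p = 3.49e-07), and 5.01 without preadipocyte replicate 3. Hbb-bs and Hba-a1, the globin genes, stood at 425, 486 and 7029 CPM and 477, 644 and 7370 CPM in preadipocyte replicates 1, 2 and 3. They have near-identical copies, Hbb-bt and Hba-a2, that can share their reads. Over all genes set apart high, 54 differed by more than 4-fold between the lowest and the highest preadipocyte library, and 51 of these were highest in replicate 3. Leaving out that library gave 3619 high and 2950 low genes.

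The other 5 of the 20 were Cfd, Thrsp, Cidec, Pck1 and Ucp1, all genes of fat cells. Cfd encodes adipsin, a complement protease secreted by adipocytes, and stood at 48, 82.7 and 54.4 CPM in preadipocyte replicates 1, 2 and 3, 0.388, 0.41 and 1 CPM in progenitor, 0.802, 0.15 and 0.545 in intermediate and 0.0717, 0.191 and 0.0707 in smooth muscle replicates. The preadipocyte libraries lay above the other 9, and the gap to progenitor libraries was 6.64 ± 0.38 on the log2 scale (SE, largest adjusted p = 1.52e-09). Thrsp, a regulator of lipid synthesis, stood at 96.3, 143 and 73.9 CPM in preadipocyte replicates 1, 2 and 3 and 1.4 to 3.9 CPM in the other 9 libraries. Pck1, whose enzyme makes the glycerol backbone of triglyceride in fat cells, was at 78.1, 124 and 50.8 CPM against 0.848 to 3.46 CPM in the others. All 3 of these genes were at least 28.6-fold above their nearest population. Ranked again with genes limited to at most a 3-fold spread among preadipocyte libraries, a limit chosen after the values were seen, the next genes were Chchd10, Slc36a2, Gpd1, Cd36, Mrap, Adipoq, Irs4, Plin1, Lipe, Car3, Reep6, Acsl1, Prkar2b, Aqp7 and Fam213a. Mrap, which carries the ACTH receptor to the cell surface, stood at 139, 169 and 83.7 CPM against 0.0636 to 9.57, and Irs4, an insulin receptor substrate, at 69.6, 110.3 and 50.1 CPM against 0.287 to 5.61 in the other 9.

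Of 27 adipogenic transcription factors tested, 6 were set apart high and 3 low, near the shares of 16% and 13.7% over all genes, with a median log2 difference of 0.45 from the mean of the others against -0.26 over all genes. Pparg stood at 286, 395 and 205 CPM in preadipocyte replicates 1, 2 and 3, 58.2, 54.9 and 51.6 CPM in progenitor, 8.64, 8.95 and 7.09 in intermediate and 5.02, 3.18 and 2.97 in smooth muscle replicates. Every preadipocyte library lay above every other, and the gap to progenitor libraries was 2.43 ± 0.21 (largest adjusted p = 1.45e-07). Cebpa reached 125, 80.6 and 40 CPM in preadipocyte replicates 1, 2 and 3 and 3.44 to 19 in the other 9. The others set apart high were the PPARγ partner Rxrg at 33.2 ± 9.66 CPM (SD, n = 3), the lipid-sensing receptor Nr1h3 at 33.5 ± 11.5, Srebf1, which drives lipid synthesis, at 286 ± 102, and Klf15 at 21.3 ± 7.32 CPM. Klf4, an early factor of the adipogenic cascade, was set apart low at 70.4 ± 32.2 CPM against 259.6, 324 and 356 CPM in smooth muscle, progenitor and intermediate libraries. The 2 others set apart low were Creb5 and Tcf7l1.

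Several factors tied to fat commitment did not set preadipocytes apart. Ebf2, which marks brown fat precursors, was at 311 ± 25.4 CPM in progenitor and 304 ± 77.7 CPM in preadipocyte libraries (log2 difference -0.04 ± 0.16, adjusted p = 0.877). Zfp423, a factor of committed white preadipocytes, was at 38.6 CPM in preadipocyte libraries, near 35.7 in smooth muscle and under 90.6 in progenitor and 104 in intermediate libraries. Cebpd, an early inducer of Pparg, was at 66 CPM in preadipocyte and 334 in progenitor libraries. Gata2, a repressor of adipogenesis, was highest in smooth muscle libraries at 31.8 CPM.

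Of 21 brown fat factors and coactivators tested, 10 were set apart high and 5 low, against 16% and 13.7% of all genes. Summed over the list's 23 genes, preadipocyte replicates 1, 2 and 3 held 1061, 1186 and 779 CPM. The other 9 libraries held 1672 to 2326 CPM. Ppargc1a, the coactivator that drives mitochondrial gene expression, stood at 59.6, 63.5 and 35.3 CPM in preadipocyte replicates 1, 2 and 3, 4.66, 3.69 and 2.81 CPM in progenitor, 3.74, 2.33 and 2.18 in intermediate and 10.6, 8.52 and 9.96 in smooth muscle replicates. No preadipocyte library overlapped the others, and the gap to smooth muscle libraries was 2.44 ± 0.24 (largest adjusted p = 4.39e-07). Its relative Ppargc1b reached 64.3, 69.9 and 34 CPM in preadipocyte replicates 1, 2 and 3 and 1.96 to 6.83 CPM elsewhere. The nuclear receptors they act on were high as well, with Esrra at 25.8 ± 9.63, Esrrg at 20.1 ± 4.59 and Ppara at 23.9 ± 6.28 CPM, together with Irf4, Dpf3 and the regulators of mitochondrial genes Tfam, Nrf1 and Gabpa. Prdm16, a determinant of brown fat identity, went another way. It stood at 28.2, 19.9 and 10.8 CPM in preadipocyte replicates 1, 2 and 3, 4.66, 4.51 and 2.95 CPM in progenitor, 6.33, 3.91 and 1.91 in intermediate and 52.8, 38.5 and 49.7 in smooth muscle replicates. Preadipocyte libraries lay above progenitor and intermediate and below smooth muscle libraries, with a log2 difference of -1.26 ± 0.33 from the last (adjusted p = 0.00348). Thrb, a thyroid hormone receptor, and Zfp516, a factor that activates Ucp1, were set apart low at 3.96 and 15.8 CPM.

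The promoters of genes set apart high were searched for the DNA letters bound by the factors that were themselves high. RefSeq promoter windows of 250 bases before to 50 after a start on GRCm38.p6 were at hand for 13613 of the genes tested, on both strands and with overlaps between motifs allowed. The C/EBP letters TTGCNNAA were in the windows of 206 of 2357 high genes (8.74%), 225 of 2041 low genes (11%) and 1453 of all 13613 (10.7%). The ERR letters TCAAGGTCA, read by the products of Esrra and Esrrg, were in 6 high genes (0.255%) against 46 of all (0.338%). The PPAR/RXR repeat AGGTCANAGGTCA was in 1 high gene (0.0424%) and 6 of all (0.0441%). Among high genes of the respiratory chain, TCA cycle and fatty acid oxidation lists, 12 of 94 (12.8%) held the C/EBP letters and 2 (2.13%) the ERR letters, and among high genes of the lipid and thermogenic lists 5 of 35 (14.3%) held the C/EBP letters. The shares over all high genes were no larger than those over all genes. Windows from 4 members are shown because they carry these letters beside genes that were set apart high, as Cebpa and Esrra were. The matching letters are in capitals, and whether these genes follow Cebpa or Esrra was not tested. The windows are from Plin1, a droplet coat gene, at chr7:79732777-79732866 on the minus strand, and from Pparg itself, just before 1 of its starts, at chr6:115421976-115422065 on the plus strand. The other windows are from Angptl8, an inhibitor of lipoprotein lipase, at chr9:21835380-21835469 on the plus strand, and from Atp5g3, an ATP synthase subunit with the ERR letters, at chr2:73911327-73911416 on the minus strand.
Plin1: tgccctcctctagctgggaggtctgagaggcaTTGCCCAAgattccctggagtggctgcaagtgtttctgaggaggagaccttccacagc
Pparg: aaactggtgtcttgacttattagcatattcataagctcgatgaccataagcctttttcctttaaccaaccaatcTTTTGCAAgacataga
Angptl8: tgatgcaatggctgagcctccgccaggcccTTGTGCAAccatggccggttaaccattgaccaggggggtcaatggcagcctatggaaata
Atp5g3: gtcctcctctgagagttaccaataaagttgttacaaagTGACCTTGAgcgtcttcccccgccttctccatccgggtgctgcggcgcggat
A match describes the letters only, and binding was not measured here.

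Genes of heat production were set apart high in 14 of 30 tested cases and low in 2, against 16% and 13.7% of all genes. Ucp1 stood at 145, 135 and 77.5 CPM in preadipocyte replicates 1, 2 and 3, 6.44, 6.02 and 3.62 CPM in progenitor, 2.14, 2.41 and 4.72 in intermediate and 1, 1.21 and 1.55 in smooth muscle replicates. Replicate 3 was the lowest of its group and still above all 9 others, and the gap to progenitor libraries was 4.48 ± 0.30 (largest adjusted p = 9.26e-09). Cidea, a droplet protein of brown fat, reached 30.9, 27.9 and 13.9 CPM in preadipocyte replicates 1, 2 and 3 and 0.15 to 1.84 elsewhere. Otop1, Elovl3, Letmd1, Cited1, Clstn3, Nrg4, Gk, Pank1, Gys2 and Acot2 were high too, for example the proton channel gene Otop1 at 14.6 ± 4.92 CPM against at most 0.862 on average in another population. Letmd1, whose product is needed in brown fat mitochondria, was at 93 ± 24.5 CPM against 14.6, 31.7 and 16.4 in smooth muscle, progenitor and intermediate libraries.

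Not every thermogenic gene followed. Dio2, which activates thyroid hormone, was highest in intermediate libraries at 35.7 ± 0.902 CPM and stood at 4.38 ± 1.08 in preadipocyte libraries. Kcnk3, a potassium channel of brown fat, peaked in smooth muscle libraries, with 88.1 ± 15.7 CPM there and 39.8 ± 16.6 in preadipocyte libraries. In the creatine cycle, a second route of heat production, the phosphatase gene Alpl was set apart high at 94.5 ± 29.5 CPM. Ckb, the creatine kinase of that cycle, was set apart low and stood at 33, 37.6 and 23.7 CPM in preadipocyte replicates 1, 2 and 3, 238, 239 and 199 CPM in progenitor, 136, 131 and 137 in intermediate and 176, 184 and 226 in smooth muscle replicates. Its preadipocyte libraries lay below all 9 others, with a log2 difference of -2.10 ± 0.17 from intermediate libraries (largest adjusted p = 2.88e-08). The creatine transporter Slc6a8 was low as well, at 7.77 ± 3.17 CPM. Cpt1b, the carnitine palmitoyltransferase of muscle and brown fat, had too few counts to be tested.

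Receptors that start or restrain lipolysis were set apart high in 9 of 27 cases and low in 3, against 16% and 13.7% of all genes. Their median log2 difference from the mean of the others was 0.16, against -0.26 over all genes. Adrb3, the beta-3 adrenergic receptor, stood at 36.7, 60.6 and 43.1 CPM in preadipocyte replicates 1, 2 and 3 and at 0.565 to 3.34 CPM in the other 9. Adrb1 was at 11.7 ± 6.93 CPM. The restraining receptors Hcar1 and Hcar2, for lactate and for ketone bodies, were at 65 ± 23.7 and 49.3 ± 19.3 CPM, and the fatty acid receptors Ffar4 and Ffar2 at 15.5 ± 5.22 and 2.59 ± 1.29 CPM. Tshr, the thyrotropin receptor, was at 20.5 ± 9.21 CPM against at most 3.52 on average elsewhere. Ptger3 and the adiponectin receptor gene Adipor2 completed the 9. The adenosine receptor gene Adora2a, the leptin receptor gene Lepr and Igf1r were low, Igf1r at 20.04 ± 5.87 CPM against 131, 56.6 and 91.5 in smooth muscle, progenitor and intermediate libraries.

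Enzymes that release stored fat were set apart high in 8 of 14 cases and low in none, 13 of the 14 being higher than the mean of the others. Pnpla2, the first lipase of the pathway (ATGL), stood at 357, 487 and 233 CPM in preadipocyte replicates 1, 2 and 3 against 24.4 to 44.3 elsewhere, and Lipe, the second (hormone-sensitive lipase), at 175, 177 and 79.3 against 2.54 to 10.8. Their inhibitor G0s2 was high together with them, at 258, 323 and 175 CPM against 1.41 to 23, and so was Aqp7, the glycerol channel, at 95.4 ± 36.7 CPM. Fabp4, a carrier of fatty acids, stood at 2715, 2740 and 1896 CPM in preadipocyte replicates 1, 2 and 3, 204, 236 and 189.8 CPM in progenitor, 61, 62.9 and 53.3 in intermediate and 43.1, 58 and 54.3 in smooth muscle replicates. The preadipocyte libraries lay above the other 9, and the gap to progenitor libraries was 3.54 ± 0.18 (largest adjusted p = 3.9e-10).

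The coat and assembly genes of lipid droplets were set apart high in 9 of 15 cases. Plin1, the perilipin of mature fat cells, stood at 269, 379 and 162 CPM in preadipocyte replicates 1, 2 and 3, 17.4, 21.3 and 15.9 CPM in progenitor, 3.92, 3.31 and 3.18 in intermediate and 1.22, 0.254 and 1.27 in smooth muscle replicates. Preadipocyte libraries were above all others, by 3.89 ± 0.30 over progenitor libraries (largest adjusted p = 3.92e-08). Cidec, which enlarges droplets, reached 168, 240.5 and 114 CPM in preadipocyte replicates 1, 2 and 3 against 0.763 to 7.37 elsewhere. Plin5, which ties droplets to mitochondria, was at 27.9 ± 8.74 CPM and Plin4 at 47.5 ± 25.4 CPM. The list's 1 low gene was Hsd17b11, at 4.33 ± 1.38 CPM.

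Triglyceride synthesis genes were set apart high in 7 of 17 cases, against 16% of all genes. Gpd1, Acsl1, Gpat3, Agpat2, Lpin1, Dgat1 and Dgat2 covered the path from glycerol phosphate and fatty acid to triglyceride. Gpd1 stood at 555, 954 and 351 CPM in preadipocyte replicates 1, 2 and 3 against 2.42 to 39.4 elsewhere, and Dgat2 at 122, 201 and 85.7 against 9.32 to 25.3. Lpin3 was set apart low at 2.35 ± 0.628 CPM. Genes that make and desaturate fatty acids did not stand apart as a group, with 3 of 20 high and 3 low and a median of 0.13. The synthetic enzymes Fasn and Acaca were at 167 and 29.4 CPM in preadipocyte libraries and 154 and 19.9 CPM in progenitor libraries. The low genes were the desaturases Scd2, Fads1 and Fads2, Scd2 at 169 ± 48.7 CPM against 284, 405 and 580.3 in smooth muscle, progenitor and intermediate libraries. Scd1, the desaturase of mature fat cells, reached 63.5, 277 and 46 CPM in preadipocyte replicates 1, 2 and 3 and 14.9 to 48.7 elsewhere, a spread within preadipocytes that overlapped progenitor libraries.

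Uptake genes were set apart high in 9 of 16 cases and low in 3, against 16% and 13.7% of all genes. Cd36, a fatty acid transporter at the surface, reached 643, 1028 and 499.7 CPM in preadipocyte replicates 1, 2 and 3 against 11.4 to 41.7 elsewhere. Lpl, the lipoprotein lipase, was much closer to progenitor libraries, at 1994, 2490 and 1591 CPM against 1513 ± 53.1 (SD, n = 3), and only just passed (largest adjusted p = 0.0301). It was no longer set apart in 8 of 19 alternative settings. The lipoprotein receptors Vldlr and Lrp1 were among those set apart low, Lrp1 at 246 ± 70.6 CPM against 491, 1054 and 1305 in smooth muscle, progenitor and intermediate libraries.

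Of 21 secreted factors of fat cells, 6 were set apart high and 5 low, against 16% and 13.7% of all genes. Adipoq, the adiponectin gene, stood at 915, 1250 and 694 CPM in preadipocyte replicates 1, 2 and 3, 61.9, 74.9 and 41.9 CPM in progenitor, 14.5, 12.8 and 11.5 in intermediate and 2.29, 0.7 and 1.34 in smooth muscle replicates. The preadipocyte libraries lay above all others, by 16-fold over progenitor libraries (largest adjusted p = 1.26e-08). Retn, which encodes resistin, was at 27.6 ± 6.43 CPM, and Nampt, Lcn2 and Agt were the others high. Lep, the leptin gene, stood at 2.38, 7.92 and 3.17 CPM in preadipocyte replicates 1, 2 and 3 and 0 to 2.75 elsewhere, so preadipocyte and other libraries overlapped. It was not set apart, but became so in 6 of 18 alternative settings. Il6 and Metrnl were set apart low, at 43.7 ± 6.67 and 16.6 ± 2.36 CPM, and Pltp and Ccn5 were low too. Of 22 genes of insulin action and glucose handling, 9 were set apart high and 2 low, against 16% and 13.7% of all genes. The high ones included the insulin-responsive glucose transporter Slc2a4 at 52.3 ± 16.1 CPM and pyruvate carboxylase Pcx at 343 ± 160. Pdk4, which spares glucose, was high at 157 ± 37.3 CPM. Grb14, an inhibitor of the insulin receptor, was low at 9.65 ± 3.01 CPM.

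Mitochondrial genes were set apart high almost throughout. Of 80 nuclear subunits of the respiratory chain and ATP synthase tested, 77 were set apart high and none low, with a median log2 difference of 1.93. All 4 subunits of complex II and all 10 of complex III with cytochrome c were among them, with 35 of 36 in complex I, 13 of 14 in complex IV and 15 of 16 in complex V. Cycs, cytochrome c, stood at 790.3, 819 and 657 CPM in preadipocyte replicates 1, 2 and 3 against 76.7 to 139 elsewhere, and the complex III subunit gene Uqcrfs1 at 614, 682 and 551 against 58 to 119. For both genes the preadipocyte libraries lay above the other 9. The 3 exceptions were Ndufb2, Atpif1, which inhibits ATP synthase, and Cox4i2, the isoform used under low oxygen, at 0.83 ± 0.0442 CPM against 10.4 ± 1.33 in smooth muscle libraries. Of the 13 genes of the mitochondrial genome, 11 were high, with a median of 1.66.

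**Figure D2:**
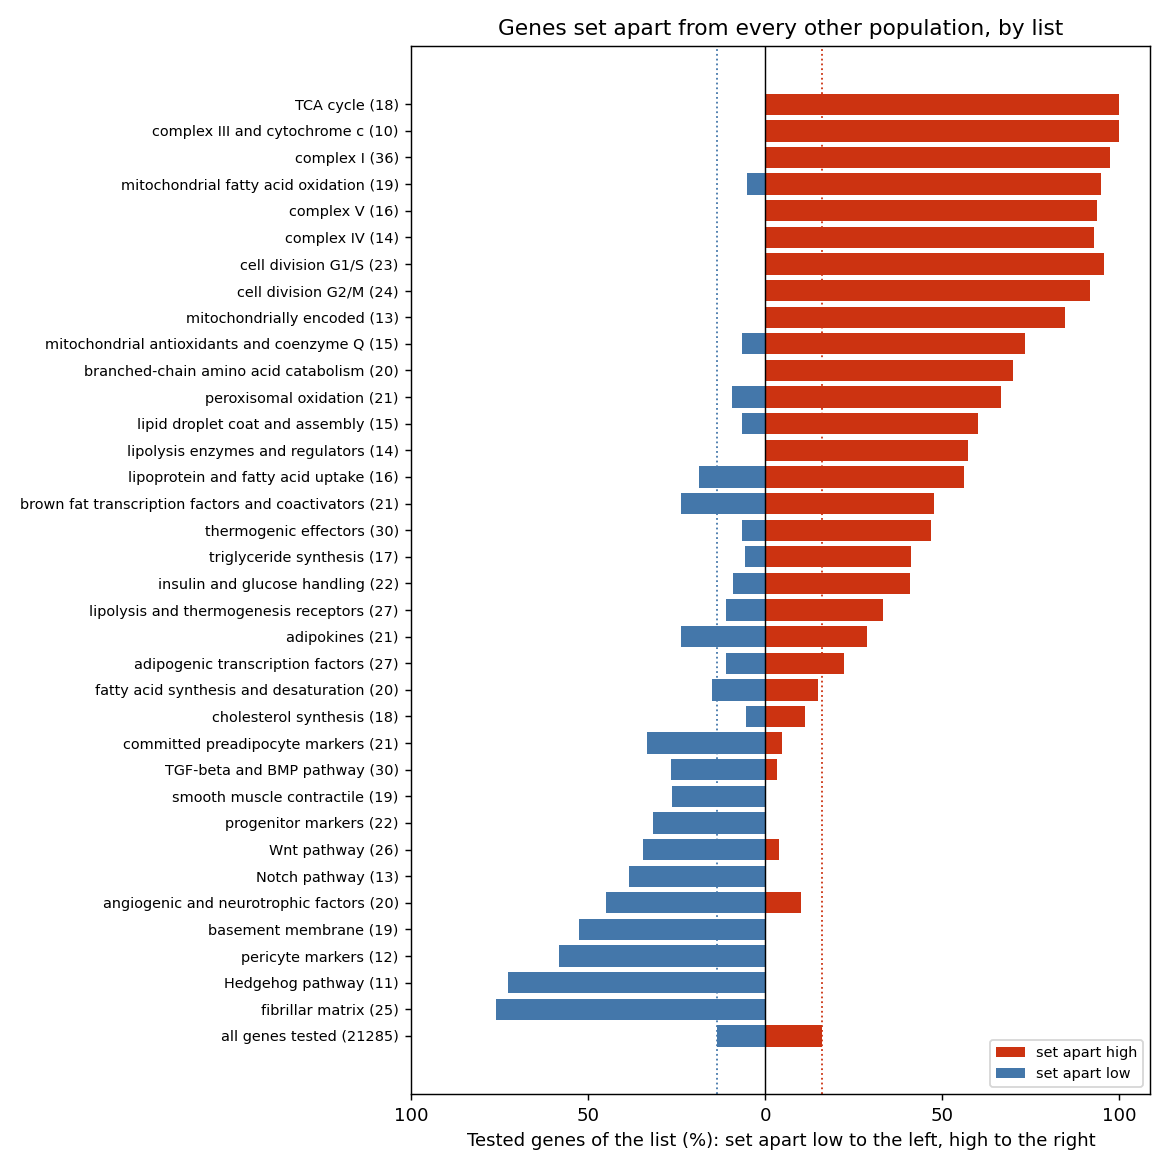
For each list drawn, bars give the percent of its tested genes set apart high, to the right, or low, to the left. Brackets give the number tested. Some lists are not drawn, among them red blood cell genes, with 10 of 11 high, complex II, with 4 of 4 high, and other cell type lists. Dotted lines mark the shares over all 21285 genes, 16% high and 13.7% low. Among the lists drawn, mitochondrial and cell division lists reach furthest right, fibrillar matrix and Hedgehog lists furthest left.

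All 18 genes of the TCA cycle and pyruvate dehydrogenase were set apart high, Idh3a at 1049, 1284 and 837 CPM in preadipocyte replicates 1, 2 and 3 against 60.1 to 125 elsewhere and Cs, citrate synthase, at 875, 1316 and 774 against 134 to 215. In mitochondrial fatty acid oxidation 18 of 19 genes were high, among them Acadl at 376, 429 and 312 CPM against 53.5 to 76.2 and Hadh at 632, 831 and 419 against 63.5 to 145. The exception was Cpt1a, a gene of its entry step. Cpt1b, the form of muscle and brown fat, had too few counts to be tested. Cpt1a, which passes fatty acids into mitochondria, stood at 43.8, 75.8 and 65 CPM in preadipocyte replicates 1, 2 and 3, 171, 155 and 162 CPM in progenitor, 153, 149 and 151 in intermediate and 193, 203 and 162 in smooth muscle replicates. All 3 preadipocyte libraries lay below the other 9, with a log2 difference of -1.29 ± 0.17 from intermediate libraries (largest adjusted p = 6.38e-06). Branched-chain amino acid breakdown was high in 14 of 20 cases, peroxisomal oxidation in 14 of 21 with 2 low, and mitochondrial antioxidant and coenzyme Q genes in 11 of 15 with 1 low. Coq8a and Sod2 were examples, at 104 ± 35.1 and 527 ± 102 CPM. Cholesterol synthesis did not follow, with 2 of 18 high, 1 low and a median of 0.02.

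Family members with tissue-restricted and general forms were compared per kilobase of exon. Exon length was that of all annotated exons of a gene merged, 4489 bases for Fabp4 and 3567 for Fabp5. It may exceed the length of the transcript present, so levels within a pair depend on the annotation. In preadipocyte libraries the heart, muscle and brown fat form Cox7a1 was at 87.9 ± 23.6 CPM per kb (SD, n = 3) and the general form Cox7a2 at 436 ± 53.5, while in progenitor libraries they were at 3.58 ± 0.628 and 138 ± 6.52. Cox8b and Cox8a were at 40.6 ± 6.99 and 1012 ± 149.5 CPM per kb in preadipocyte libraries. Both forms were set apart high in each pair, but the restricted form by more: the log2 difference from the mean of the others was 5.16 ± 0.21 for Cox7a1 and 1.88 ± 0.10 for Cox7a2, and 5.74 ± 0.25 and 2.17 ± 0.11 for Cox8b and Cox8a. The general forms were the more abundant per length. Among carriers the order was the opposite, with Fabp4 at 546 ± 107 CPM per kb above Fabp5 at 169.7 ± 15.3. Plin1 reached 58.1 ± 23.3 CPM per kb beside Plin2 at 89.1 ± 17.9, and Esrra and Esrrg were at 5.87 ± 2.19 and 3.24 ± 0.739. Differences between members of a pair were not tested. The heart genes Myl7, Tnni3, Tnnt2, Myh6 and Actc1 were set apart high in the same libraries, the striated and cardiac muscle list summing to 172, 284 and 126 CPM in preadipocyte replicates 1, 2 and 3 against 24.8 to 110.2 in the other 9, and their part in the levels of Cox7a1 and Cox8b was not tested.

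**Figure D3:**
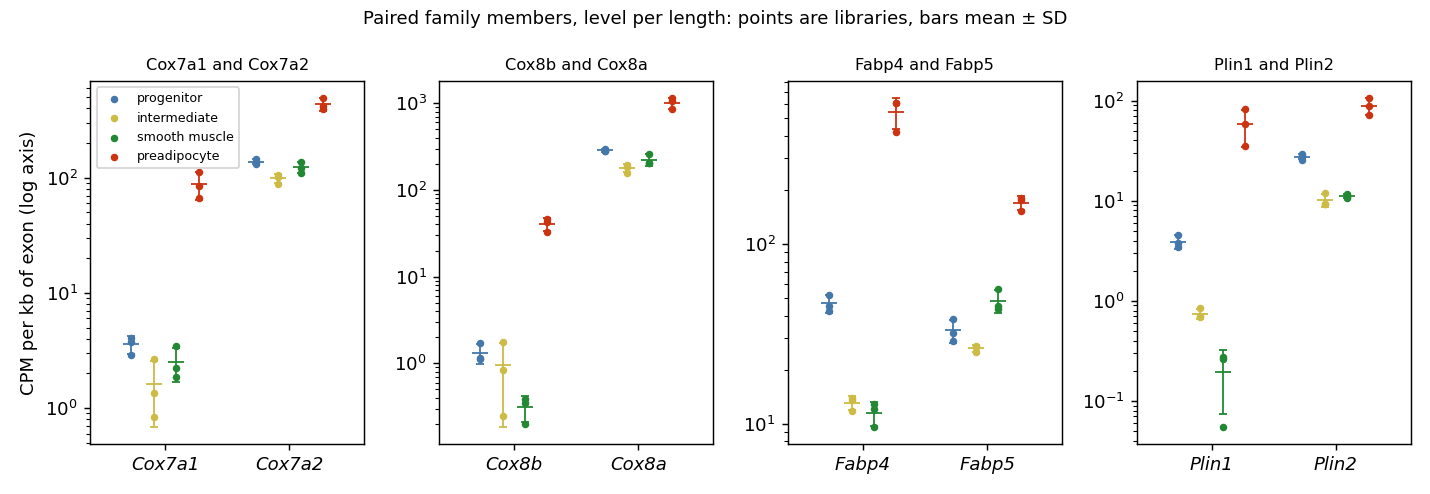
Level per length, in CPM per kb of exon on a log axis, for 4 pairs of related genes in each population; points are libraries and bars the mean ± SD of 3. In preadipocyte libraries Cox7a1 and Cox8b lie further above the other populations than Cox7a2 and Cox8a do, but at lower levels, while Fabp4 lies above Fabp5.

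Genes of cell division were also set apart high almost throughout. Of 23 genes of DNA replication and entry into S phase, 22 were high, and of 24 genes of mitosis, 22 were high, with none low and a median log2 difference of 1.8 over both. Rrm2, which makes deoxynucleotides, stood at 404, 595 and 903 CPM in preadipocyte replicates 1, 2 and 3, 83.9, 82.4 and 72.5 CPM in progenitor, 96.6, 72.5 and 79.8 in intermediate and 81.4, 67.8 and 67.5 in smooth muscle replicates. The preadipocyte libraries lay above all others, by 2.93 ± 0.23 over intermediate libraries (largest adjusted p = 3.52e-08). Birc5, a protein of the mitotic spindle, reached 186, 199.8 and 246 CPM in preadipocyte replicates 1, 2 and 3 against 26.8 to 45.8 elsewhere, and Ccnb1, the mitotic cyclin, 228, 339.5 and 398 against 55.3 to 82.7. The 3 genes not set apart were E2f1, Kif23 and Anln, Anln being at 85.8 CPM in preadipocyte and 89.5 CPM in smooth muscle libraries. Replicate 3, which held the most RNA of red blood cells (1.84% of counts on haemoglobin genes), was the highest of its group for Rrm2, Birc5 and Ccnb1. Without it 22 genes of each list were again set apart. Replicates 1 and 2 also held RNA of red blood cells, their marker genes summing to 1227 and 1594 CPM against at most 335 in the other 9 libraries. Leaving out replicate 3 therefore did not remove this RNA, and its part in the cell division levels was not tested.

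On the low side, the 15 genes with the widest gaps were Epha3, Prdm6, Tnfrsf11b, Prss35, Dkk3, Cdh12, Ntn1, Crispld2, Itga11, Cd200, Olfml2b, Abcc9, Thbd, Fmo2 and Galnt16. Epha3, a receptor for ephrins that guides cell contact, stood at 8.37, 11.2 and 10.5 CPM in preadipocyte replicates 1, 2 and 3, 234, 215 and 213 CPM in progenitor, 973, 986 and 865 in intermediate and 205, 232 and 166 in smooth muscle replicates. Preadipocyte libraries were below all 9 others, with a log2 difference of -4.32 ± 0.17 from smooth muscle libraries (largest adjusted p = 5.66e-11). Prdm6, a repressor known from vascular smooth muscle, lay at 2.7, 4.9 and 2.56 CPM in preadipocyte replicates 1, 2 and 3 and 59.4 to 107 elsewhere. Tnfrsf11b, which encodes osteoprotegerin, was at 2.43, 3.02 and 2.23 against 30.9 to 40.6 CPM, and Itga11, a collagen-binding integrin, at 4.75, 4.17 and 3.29 against 42.1 to 99 CPM. Ntn1, the guidance cue netrin-1, was at 7.23, 5.26 and 5.07 against 65.3 to 252 CPM, and Cd200, an immune-restraining surface protein, at 9.07, 7.01 and 4.34 against 66.6 to 282 CPM. As the rule for set-apart genes requires, none of these preadipocyte values overlapped the other 9 libraries.

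**Figure D4:**
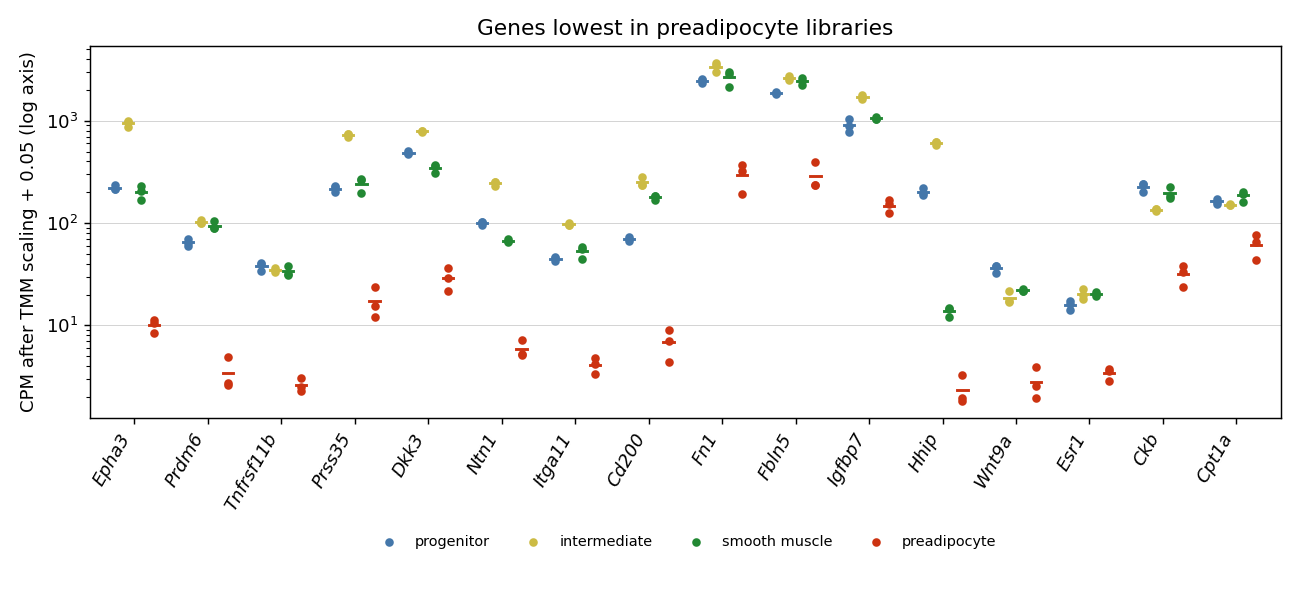
Levels of 16 genes set apart low in each library, as CPM after TMM scaling plus 0.05 on a log axis; points are libraries and short bars the mean of 3. The preadipocyte libraries lie below the other 9 for every gene drawn, as the rule for set-apart genes requires.

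Of 25 fibrillar and elastic matrix genes, 19 were set apart low and none high, with a median log2 difference of -2.52. Fn1, fibronectin, stood at 369.8, 324 and 193 CPM in preadipocyte replicates 1, 2 and 3, 2501, 2335 and 2568 CPM in progenitor, 3473, 3676 and 2973 in intermediate and 3013, 2837 and 2113 in smooth muscle replicates. The preadipocyte libraries lay below all others, by a log2 difference of -3.06 ± 0.22 from progenitor libraries (largest adjusted p = 1.37e-08). Fbln5, which assembles elastic fibres, lay at 233, 398 and 233 CPM in preadipocyte replicates 1, 2 and 3 against 1840 to 2722 elsewhere. Col1a2 was at 4327, 3869 and 2874 against 8349 to 68780 CPM, with smooth muscle libraries the nearest. The 6 not set apart were Col6a1, Col6a2, Col5a3, Fbln1, Fbln2 and Fbn2, where preadipocyte libraries overlapped or did not differ from another population; Col6a1 was at 1172 ± 279 CPM in preadipocyte and 1033 ± 22.4 in smooth muscle libraries. Basement membrane genes were low in 10 of 19 cases, and in 5 with scaling by library size alone. Col4a1 was at 478 ± 172 CPM in preadipocyte libraries against 715 ± 35.7 in progenitor and 3465 ± 245 in intermediate libraries, and Lama2 at 27.1 ± 6.7 against 77.5 ± 4.51 in smooth muscle libraries, its nearest population.

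Markers listed for committed preadipocytes pointed down more often than up, with 7 of 21 set apart low and 1 high. Icam1 stood at 115, 122 and 89 CPM in preadipocyte replicates 1, 2 and 3 against 129.5 to 469 elsewhere, and Vcam1, another adhesion molecule, at 44.4, 49.6 and 40.2 against 85.6 to 265. Clec11a, Igfbp7, Cd9, Lox and Bmpr1a were the other low genes. Mme, the surface peptidase CD10, was the high one at 36.7 ± 12.2 CPM against at most 14.7 on average elsewhere. Of 22 progenitor markers 7 were low and none high, against 13.7% and 16% of all genes, and 15 were not set apart. Against the mean of the others, 21 of the 22 were lower and none higher, with a median log2 difference of -2.14. In Pi16 and Ly6c1 preadipocyte libraries lay near smooth muscle libraries, Pi16 at 12 ± 4.96 and 9.96 ± 3.23 CPM and Ly6c1 at 1.35 ± 0.705 and 1.24 ± 0.233 CPM. Pdgfra, a growth factor receptor of mesenchymal cells, was at 105 ± 23.4 CPM in preadipocyte libraries, between 34.2 ± 4.99 in smooth muscle and 303 ± 23.4 in intermediate libraries.

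Mural cell genes were low in part. Of 12 pericyte markers 7 were set apart low, Rgs5 at 9.61, 12.3 and 7.13 CPM in preadipocyte replicates 1, 2 and 3 against 16.7 to 627 elsewhere and the channel genes Kcnj8 and Abcc9 at 5.64 ± 1.92 and 12.4 ± 1.69 CPM. Of 19 contractile genes 5 were low, against 13.7% of all genes, with Myl9 at 61.2, 74 and 50.6 CPM against 146 to 1653. Myh11 and Acta2 were not, at 16.8 ± 2.65 and 107 ± 32.9 CPM in preadipocyte libraries against 2.1 ± 0.386 and 32.9 ± 7.75 in progenitor libraries.

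Signalling genes were set apart low more often than high, while over all genes 13.7% were low and 16% high. In the Hedgehog pathway 8 of 11 were set apart low and none high. Hhip, a target gene that binds the ligand, stood at 1.78, 3.2 and 1.89 CPM in preadipocyte replicates 1, 2 and 3, 221, 199 and 186 CPM in progenitor, 574, 621 and 617 in intermediate and 11.9, 14.6 and 14.6 in smooth muscle replicates. Preadipocyte libraries lay below all others, with a log2 difference of -2.58 ± 0.19 from smooth muscle libraries (largest adjusted p = 1.81e-08). The effectors Gli1, Gli2 and Gli3 and the coreceptors Boc, Cdon and Gas1 were low with the receptor Ptch1. The Notch list had 5 of 13 low, Heyl, a target gene, at 14.7, 17.2 and 9.8 CPM against 31 to 382. The Wnt list had 9 of 26 low, from ligands (Wnt2, Wnt2b, Wnt5b, Wnt9a) to secreted inhibitors (Sfrp2, Sfrp4, Frzb, Dkk3), and 1 high, the inhibitor Wif1 at 3.77 ± 1.34 CPM. Wnt9a stood at 2.48, 3.87 and 1.89 CPM in preadipocyte replicates 1, 2 and 3 against 16.8 to 38.3 elsewhere. In the TGF-beta and BMP list 8 of 30 were low, and 13 without preadipocyte replicate 2. Tgfb2, Tgfb3 and the receptor Tgfbr2 were at 4.99 ± 1.71, 38.2 ± 12.2 and 57.5 ± 15 CPM. The 1 high gene was Acvr1c, the receptor ALK7 of fat cells, at 28.9, 41.3 and 24.4 CPM against 0.543 to 4.45.

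Factors that act on vessels and nerves were low in 9 of 20 cases and high in 2. Vegfb, a growth factor tied to fatty acid transport, was high at 68.1, 72.3 and 42.7 CPM against 10.9 to 22, and Angpt1 at 8.59 ± 1.3 CPM. Its antagonist Angpt2 was low at 6.96, 3.99 and 3.9 against 29.8 to 132 CPM, with Vegfc, Vegfd, Bdnf, Gdnf, Fgf2, Fgf9, Sema3a and Ntn1. Among 14 hormone-handling genes the oestrogen receptor gene Esr1 was low at 3.56, 3.69 and 2.84 CPM against 13.9 to 22.6, and Hsd11b1, which activates glucocorticoids, was high at 13.3 ± 6.87 CPM.

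Markers of other cell types differed between the libraries. The 13 red blood cell genes in the table summed to 1227, 1594 and 18780 CPM in preadipocyte replicates 1, 2 and 3 and 31.3 to 335 in the other 9, and 10 of the 11 tested were set apart high, both with all libraries and without replicate 3, but 6 by limma-voom. Tfrc, the transferrin receptor, which dividing cells also use, was among them at 192, 292 and 932 CPM against 15.6 to 35.4. Of 12 striated and cardiac muscle genes 5 were set apart high, the heart genes Myl7, Tnni3, Tnnt2, Myh6 and Actc1. Myh6 stood at 24.4, 54.7 and 13.3 CPM in preadipocyte replicates 1, 2 and 3 and 0.335 to 10.1 elsewhere, and the list summed to 172, 284 and 126 CPM against 24.8 to 110.2. The myogenic factors Myod1, Myog, Myf5 and Pax7 had too few counts to be tested. Sympathetic neuron genes summed to 236, 199.9 and 149 CPM, above progenitor and intermediate libraries and below 1156, 1591 and 1472 CPM in smooth muscle replicates, and 11 of 15 were higher than the mean of the others but none was set apart. Mesothelial genes summed to 32.7, 81.7 and 23.9 CPM and peaked in smooth muscle replicates, with 1543, 1596 and 2089 CPM. Endothelial genes summed to 180.3, 143 and 81.2 CPM against 106 to 255, with Egfl7 the 1 of 17 set apart, and myeloid genes to 49.6, 23.1 and 26.6 against 29.7 to 47.2. No myeloid, lymphoid, Schwann, cartilage or epithelial gene was set apart. In preadipocyte replicate 1 the cartilage gene Col2a1 was at 156 CPM, against 5.32 and 2.51 in replicates 2 and 3. The part of these cells in the results above was not tested.

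**Figure D5:**
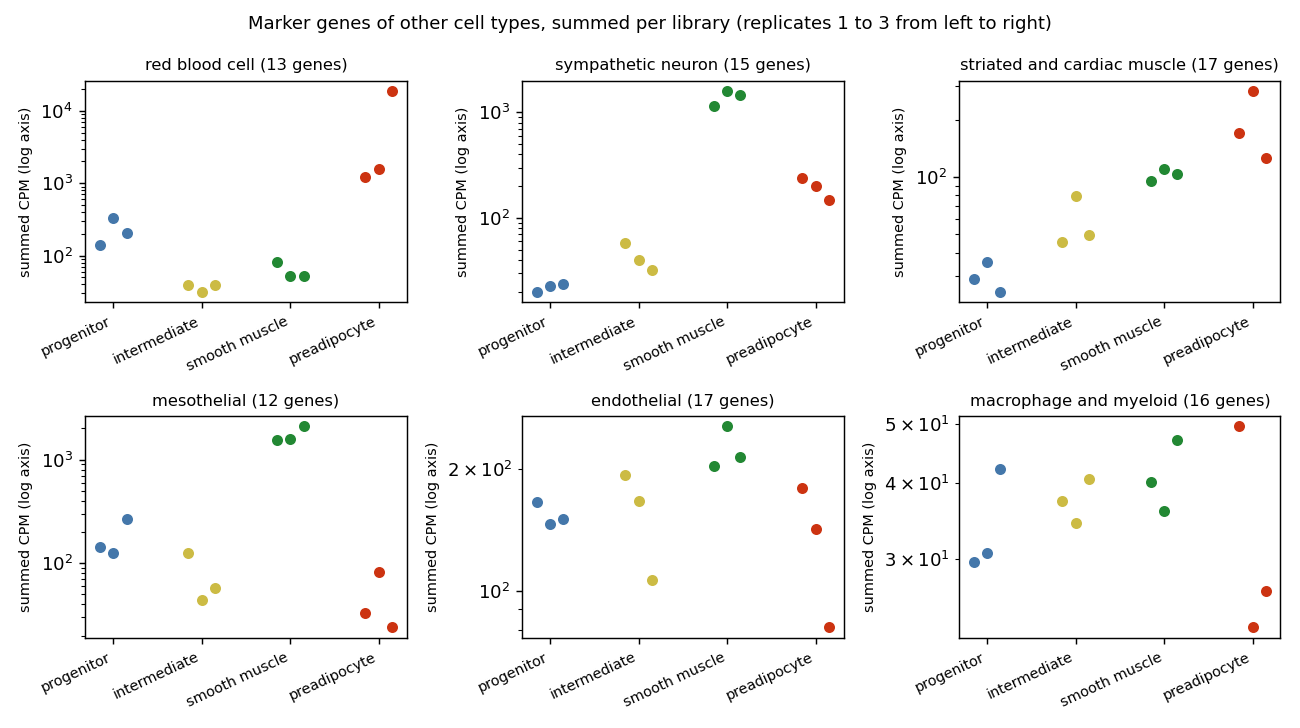
Summed CPM of marker genes of 6 other cell types in each library on log axes; points are replicates 1 to 3 from left to right within a population, and brackets give the genes summed. Red blood cell genes are highest in preadipocyte libraries, above all in replicate 3, while sympathetic and mesothelial genes are highest in smooth muscle libraries.

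Exons of 252 of the 817 distinct list genes tested overlap another annotated gene, among them Cebpa, Srebf1, Nr1h3, Esrra, Prdm16, Ebf2, Adrb3, Lipe, Gpd1, Acsl1, Fn1, Hhip and Egfl7. Because no source used here says whether counting used the strand, reads of such neighbours may be mixed and their counts are uncertain. In mm10 coordinates Adipoq lies on chromosome 16 from 23146536 to 23158028, Pparg on chromosome 6 from 115360951 to 115490399, Cpt1a on chromosome 19 from 3322334 to 3385733, Epha3 on chromosome 16 from 63543534 to 63864175, Prdm16 on chromosome 4 from 154316125 to 154636873 and Ucp1 on chromosome 8 from 83290352 to 83298452.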

How the data were processed

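The authors deposited a table of whole-number counts per gene and library, with no scaling, and this table was used here. The submitters' processing notes name the mm10 build, STAR 2.5.2a and DESeq2 1.26.0. The method of assigning reads to genes, with or without strand, is not given in the sources used here. Other tables the authors deposited were not used. Gene names came from GENCODE M21, for 36480 of 36512 identifiers, and titles of the samples gave groups and replicate numbers.

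edgeR's filterByExpr removed genes of low count and left 21285 that held 99.33% to 99.89% of each library's counts. Counts were scaled by TMM, with factors of 1.07 to 1.19 in preadipocyte, 0.871 to 0.873 in progenitor, 0.823 to 0.858 in intermediate and 1.17 to 1.20 in smooth muscle libraries. Two-sided quasi-likelihood tests (glmQLFTest) came from edgeR 4.0.16 under R 4.3.3, with all 12 libraries in 1 model. Contrasts set preadipocyte against each other population and against their equally weighted mean, and p-values were adjusted over all genes by the Benjamini-Hochberg method. Levels are CPM after TMM scaling, fold changes are log2, and the common biological coefficient of variation was 0.2.

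The compared groups and 49 gene lists (868 entries, 862 in the table) were chosen with earlier results of these data known, and no set test was run. The genes named were those with the widest gaps among set-apart genes with a mean log2 CPM of at least 4, 20 high and 15 low without predicted genes, the first members of each list by p, and a fixed set of fat cell genes. Others were named after their values were seen. Motifs were searched in RefSeq promoters. Some list members are not reported here by name.

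On simulated counts for 19760 genes, with 100 well-counted genes changed 2-fold and 100 changed 4-fold, the rule for set-apart genes recovered 55 and 98 with 0 false among 153 calls. The contrast with the mean of the others recovered 86 and 100 with 9 false among 195. In the simulation every other gene had the same mean in all populations, and changes went up and down equally. Each gene had 1 spread for all groups. The data differ in these points, so the false calls do not give a rate for the data. Replicate pairs differed beyond sampling noise, with a chi-square per degree of freedom of 3.92 to 11.3 in the other populations. In preadipocyte pairs it was 34.4, 70.9 and 63.9. The model held 1 estimate of the spread per gene for all populations. Standard errors may therefore be too small for genes that varied more among preadipocyte libraries. Alternatives were DESeq2-type size factors, library size alone, DESeq2 1.42.0, limma-voom (limma 3.58.1), other low-count filters, fits to compared groups alone, a replicate block, a minimum of 2-fold, and leaving out each library.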

Additional observations from a re-analysis of the deposited data

How the results depend on the processing

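Set-apart counts were 3409 high and 2918 low. They were 3911 and 2530 with DESeq2-type size factors, 3858 and 2504 with DESeq2, 3442 and 2859 with limma-voom, and 3190 and 2101 with each pair fitted alone. Without a low-count filter the low count was 1921, and asking for at least 2-fold in each contrast left 1871 high and 1786 low genes. Leaving out 1 library gave 3152 to 3619 high and 2213 to 3071 low genes. Genes lower than the mean of the others numbered 7131, and 4713 where at least 5 CPM in 3 libraries was required, with 12659 genes tested. Red blood cell genes set apart fell from 10 to 3 with DESeq2, which gave 8 of them no adjusted p, and were 6 with limma-voom. Basement membrane genes set apart low were 5 with library size alone against 10. TGF-beta and BMP genes set apart low were 8 to 13 with 1 library left out. The other list counts run under these alternatives, in 1 direction each, stayed within 1.5 times. Counts in the opposite direction were not run under them, nor were those of several lists, among them fatty acid synthesis, cholesterol synthesis, complex II, creatine, ketone, hormone and other cell type lists such as endothelial genes. Dlk1, not called (log2 difference 0.03 from the mean of the others), changed sign with limma-voom (0, just below zero) and without preadipocyte replicate 1 (-0.20, adjusted p = 0.316) or smooth muscle replicate 1 (-0.02, adjusted p = 0.941), with a range of -0.20 to 0.22 over the left-out libraries. Single genes run under the alternatives were those with the widest gaps, the fixed set and the paired family members. None of these but Dlk1 changed direction, though 12 had no adjusted p with DESeq2. Other named genes, such as Fn1, Ckb and Hhip, were not run singly. Replicate numbers did not pair the samples: deviations of same-numbered libraries correlated at -0.163 to 0.207 over 18 pairs. The replicate block gave 3339 high and 2874 low genes. Lep and Cpt1b had few counts, and whether greater depth would change their results was not tested.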
